A study of Mus musculus with 16 samples.

Results

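The 47 genes described here are the odorant receptors of mouse chromosome 17 that carry an Olfr number on the array, out of 19505 named genes. They were taken by chromosome and symbol, with pseudogenes and with Olfr117 and Olfr123 left out, and each gene is represented by 1 probe set, the one with the highest mean over 16 arrays. By gene order in RefSeq, 43 of them lie in 1 run between Gabbr1 and Esp36, at the distal edge of the major histocompatibility complex (MHC), where the class I genes H2-M3 and H2-M2 and the ubiquitin-like gene Ubd stand among them. The other 4 (Olfr55, Olfr239, Olfr1564 and Olfr63) lie elsewhere on the chromosome, so "near the MHC" holds for 43 of the 47.

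RNA was measured on Clariom S arrays after dissociated olfactory mucosa was sorted by GFP. The mice carried S100a5-tauGFP, and in this strain GFP serves as a reporter of activity in olfactory sensory neurons. The 24 mice, of both sexes and 7 to 12 weeks old, spent 40 h singly in chambers under clean air flowing at 3.1 L/min. From hour 26 they received pulses of 10 s every 20 min, of 2-octanone (an 8-carbon ketone) or of filtered air as vehicle, and were then pooled by 3. Each of the 8 pools gave a GFP+ and a GFP− fraction, which makes 4 groups of 4 arrays: 2-octanone GFP+, 2-octanone GFP−, vehicle GFP+ and vehicle GFP−. All groups share the reporter strain and the chambers. A pool hides differences between its mice, and the sexes within a pool are not given.

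An odorant receptor is a G protein-coupled receptor in the cilia of an olfactory sensory neuron. A mature neuron expresses a single receptor gene from a single allele, so the signal of a receptor in a bulk sample follows how many neurons chose it and how much RNA each of them holds, and fewer cells and less RNA per cell cannot be told apart here. Ligand binding acts through the G protein subunit Gnal and adenylyl cyclase Adcy3 to open the Cnga2 channel. S100a5 is a calcium-binding protein gene of these neurons whose expression depends on their activity. The MHC-linked receptor cluster is conserved between mouse and human, and its receptors belong to several families. The MOR names used below number those families, so receptors with the same first number have related proteins.

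The RefSeq table of gene starts (GRCm38.p6) held 34 of the 47 receptors. The 250 bases before the annotated start are shown for members with the largest differences between the fractions in each direction, and for the neighbours with the most alike upstream sequence. Of the 34 annotated starts, 22 fall on an ATG, so those windows lie directly before a coding start. Many receptor genes have untranslated first exons further away, and such a window may then be intron and not promoter. Olfr116, with the second largest lower value, had no entry.

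Olfr110 (chr17:37492218-37492467, plus strand) and Olfr101 (chr17:37300485-37300734, minus strand) had the largest values higher in GFP+ cells, and Olfr99 (chr17:37280419-37280668, minus strand) had the largest value lower in GFP+ cells. Olfr98 (chr17:37263663-37263912, minus strand) is the neighbour of Olfr99 on the other side and was added after its values were seen. Capitals mark the palindrome CCCNNGGG, the core of sites for Ebf factors.
Olfr110: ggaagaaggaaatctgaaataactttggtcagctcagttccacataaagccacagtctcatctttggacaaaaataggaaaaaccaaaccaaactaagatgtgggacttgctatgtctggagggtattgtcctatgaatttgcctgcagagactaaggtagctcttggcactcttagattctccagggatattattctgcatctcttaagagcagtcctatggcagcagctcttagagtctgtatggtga
Olfr101: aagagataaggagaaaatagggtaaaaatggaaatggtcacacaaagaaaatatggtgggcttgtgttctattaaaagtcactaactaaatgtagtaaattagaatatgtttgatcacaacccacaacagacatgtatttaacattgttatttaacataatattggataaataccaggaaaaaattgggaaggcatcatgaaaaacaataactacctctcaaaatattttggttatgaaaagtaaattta
Olfr99: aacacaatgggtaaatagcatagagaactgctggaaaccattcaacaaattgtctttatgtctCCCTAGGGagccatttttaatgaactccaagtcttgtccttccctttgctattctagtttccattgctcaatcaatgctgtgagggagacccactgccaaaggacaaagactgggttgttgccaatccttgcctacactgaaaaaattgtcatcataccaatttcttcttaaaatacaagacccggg
Olfr98: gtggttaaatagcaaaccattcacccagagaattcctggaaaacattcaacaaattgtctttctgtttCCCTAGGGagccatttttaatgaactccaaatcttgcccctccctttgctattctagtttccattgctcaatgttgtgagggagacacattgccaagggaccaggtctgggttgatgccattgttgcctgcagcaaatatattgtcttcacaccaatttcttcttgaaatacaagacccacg

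Olfr113 (chr17:37575422-37575671, minus strand) and Olfr114 (chr17:37590352-37590601, minus strand) are neighbours of the MOR218 family. Their windows were 84.4% identical when aligned, the highest of 561 pairs of members, whose median was 50.3%. Capitals mark the bases that differ from the other sequence or stand against a gap in the alignment, 33 in each.
Olfr113: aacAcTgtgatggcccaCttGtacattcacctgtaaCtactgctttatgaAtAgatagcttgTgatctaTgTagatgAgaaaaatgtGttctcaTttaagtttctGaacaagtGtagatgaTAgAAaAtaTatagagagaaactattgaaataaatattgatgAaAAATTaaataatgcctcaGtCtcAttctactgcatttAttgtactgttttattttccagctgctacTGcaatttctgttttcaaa
Olfr114: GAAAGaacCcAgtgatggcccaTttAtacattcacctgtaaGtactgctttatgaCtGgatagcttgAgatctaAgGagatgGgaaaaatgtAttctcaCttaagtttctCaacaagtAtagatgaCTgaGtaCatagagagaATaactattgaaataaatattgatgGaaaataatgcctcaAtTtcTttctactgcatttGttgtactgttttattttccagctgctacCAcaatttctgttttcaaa

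The arrays were alike in scale, with medians of 7.64 to 8.01 over named probe sets, on the log2 scale. The label of olfactory neurons fits the markers, since Omp, a marker of mature olfactory neurons, averaged 18.41 ± 0.04 in GFP+ and 18.29 ± 0.08 in GFP− cells of 2-octanone pools, with 18.38 ± 0.04 in GFP+ and 18.19 ± 0.29 in GFP− cells of vehicle pools (SD, n = 4 pools). GFP− cells also held other cells: the 8 neutrophil markers averaged 15.08 to 16.46 on the 8 GFP− arrays, and their level on GFP+ arrays was 7.26, 7.43, 10.22 and 13.17 in 2-octanone replicates 1 to 4 and 6.86 to 8.67 after vehicle. Markers of sustentacular cells, the supporting cells of the epithelium, were present in both fractions: the 5 averaged 9.93 to 11.42 on GFP+ and 10.76 to 11.92 on GFP− arrays. Of them Krt18 was lower in GFP+ cells (−2.35) and 4 were not called, Cyp2g1 among them, at 14.90 ± 0.58 in GFP+ and 15.21 ± 0.69 in GFP− cells of 2-octanone pools. The part of these other cells in the results below was not tested. Markers of immature neurons were lower in GFP+ cells for 5 of 8 genes, with a median difference of −1.53. The replicate 4 pools stood apart. Their S100a5 signal was 13.92 in GFP+ and 13.55 in GFP− cells of the 2-octanone pool, with 13.22 in GFP+ and 13.11 in GFP− cells of the vehicle pool, while the other 12 arrays read 15.45 to 16.98. S100a5 itself differed between the fractions by 0.83 (SE 0.60, limma adjusted p = 0.304). That fit leaves out the pool, so its spread includes the fall in replicate 4. Within every pool S100a5 read higher in GFP+ than in GFP− cells. In replicates 1 to 3 it read 16.98, 16.63 and 16.80 against 15.77, 15.76 and 15.68 after 2-octanone. After vehicle it read 16.71, 16.47 and 16.47 against 15.81, 15.45 and 15.46. Fos, an immediate early gene, was lower in GFP+ cells, at 9.74 ± 1.59 in GFP+ and 13.89 ± 1.59 in GFP− cells of 2-octanone pools, with 9.63 ± 0.84 in GFP+ and 14.07 ± 1.01 in GFP− cells of vehicle pools (SD, n = 4 pools; difference −4.30, SE 0.56, limma adjusted p = 1.56e-05). The main results below are therefore also given without both replicate 4 pools.

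The signal of the chromosome 17 receptors covered a wide range. Their means over 16 arrays ran from 5.74 to 14.32 with a median of 9.86, against 9.51 for the 1033 other odorant receptors (Olfr117 and Olfr123 among them) and 7.86 for all named probe sets. The highest were Olfr55 (14.32), Olfr239, Olfr131 (12.34) and Olfr130. The lowest were Olfr108 (5.74), Olfr761 (6.12), Olfr128 and Olfr94 (7.15). The median of 5222 negative control probe sets lay between 6.15 and 7.12 per array, and 35 members exceeded it on all 16 arrays. Against the 95th percentile of those controls, 10.01 to 11.43 per array, 7 members lay above on all 16 arrays and 18 on none. Probe sets differ in how well they bind, so this order says little about which receptor is most abundant. The SD within a group had a median of 0.45 and ran from 0.07 to 1.37.

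Many of these receptors had unequal signal in the GFP+ and GFP− fractions. Over both exposures 19 members (40.4%) were higher in GFP+ cells and 13 (27.7%) were lower, at a limma adjusted p under 0.05, and 15 did not pass. Some of those called lay above the negative control 95th percentile on no array. They were Olfr90, Olfr91, Olfr92, Olfr93, Olfr119 and Olfr138 among the higher, and Olfr111, Olfr126, Olfr127, Olfr128, Olfr134 and Olfr761 among the lower. Of all 19572 probe sets tested, 30.7% were called, 16.7% higher and 14.0% lower, and of the other odorant receptors 45.0% were higher and 25.8% lower, so the shares on chromosome 17 lie near those of receptors in general. The median difference was 0.21, beside 0.40 in other receptors and 0.13 in all probe sets, and the range was −5.41 to 4.38. The typical size of a difference, without regard to sign, was 1.01 (median), against 1.23 in other receptors and 0.23 in all probe sets. Without both replicate 4 pools, 16 were higher and 14 lower. With each array centred on its median, which adds 0.28 to every difference, the calls were 23 higher and 10 lower.

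**Figure D1:**
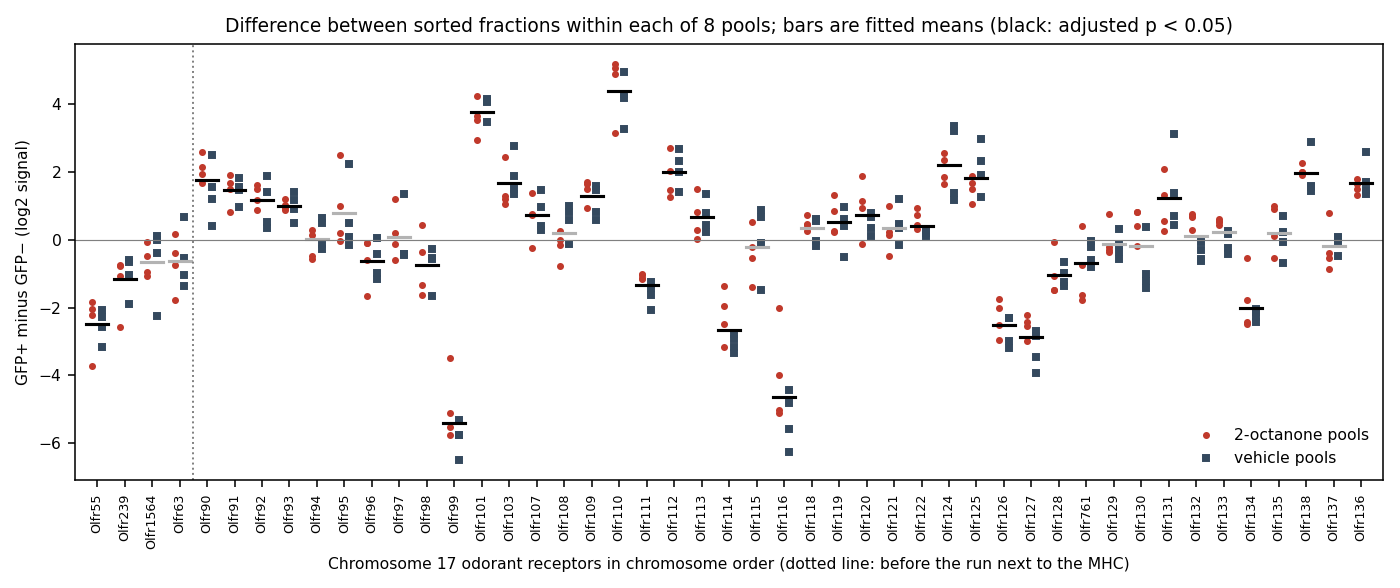
Difference between GFP+ and GFP− cells (log2 signal, vertical axis) for the 47 receptors in chromosome order (horizontal axis). Each red circle is 1 of the 4 2-octanone pools, each blue square 1 of the 4 vehicle pools, and bars are fitted means over both exposures (black where the adjusted p is under 0.05). Olfr99, at −5.41, stands next to Olfr101, at 3.77.

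Olfr110, the only member of family MOR249, had the largest difference higher in GFP+ cells. After 2-octanone it read 13.97, 13.04, 12.44 and 11.90 in GFP+ cells of replicates 1 to 4, against 8.89, 7.84, 7.54 and 8.76 in GFP− cells. After vehicle it read 13.45, 12.90, 12.91 and 11.09 in GFP+ cells, against 8.49, 8.72, 8.59 and 7.81 in GFP− cells. The fractions did not overlap, and replicate 4 had the lowest GFP+ value in both exposures. The fitted difference was 4.38 (SE 0.34, limma adjusted p = 4.18e-08), and 4.77 without both replicate 4 pools. It exceeded the 95th percentile of the negative controls on 0 of 8 GFP− arrays and on 7 of 8 GFP+ arrays. The GFP+ array under it was vehicle replicate 4, at 11.09 against 11.43. Against the percentile on the GFP− arrays, a bound chosen after these values were seen, the mean GFP+ signal was at least 4.79-fold higher.

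Olfr101, of family MOR250, came after it. Its GFP+ cells read 13.22, 12.18, 12.30 and 11.14 after 2-octanone, against 8.98, 8.51, 8.77 and 8.20 in GFP− cells. After vehicle the values were 12.99, 12.39, 12.85 and 11.01 in GFP+ cells, against 8.83, 8.90, 8.74 and 6.93 in GFP− cells. Again the fractions were apart on every array. The difference was 3.77 (SE 0.35, limma adjusted p = 2.76e-07). Above the same percentile lay 0 of 8 GFP− arrays and 7 of 8 GFP+ arrays, with GFP+ vehicle replicate 4 (11.01) under it. By the same bound the mean GFP+ signal was at least 3.49-fold higher. Olfr124, also called SR1 or MOR256-3 and known in the mouse as a receptor that answers many unrelated odorants, followed. It averaged 12.23 ± 0.52 in GFP+ and 10.13 ± 0.61 in GFP− cells of 2-octanone pools, with 12.06 ± 0.91 in GFP+ and 9.77 ± 0.86 in GFP− cells of vehicle pools (SD, n = 4 pools), a difference of 2.20 (SE 0.33, 4.58-fold, adjusted p = 5.96e-05). The next 5 by size (Olfr112, Olfr138, Olfr125, Olfr90 and Olfr103) had differences of 1.69 to 1.99, and each was higher in GFP+ cells in 8 of 8 pools. Of them Olfr138 and Olfr90 lay above the negative control 95th percentile on no array.

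Olfr99, of family MOR156, ran the other way. After 2-octanone its GFP+ cells read 7.96, 7.36, 8.65 and 9.73, against 13.48, 13.13, 13.75 and 13.23 in GFP− cells. After vehicle they read 6.74, 7.92, 7.64 and 8.22, against 13.25, 13.26, 13.41 and 13.99 in GFP− cells. The highest GFP+ array was still far below the lowest GFP− array. The difference was −5.41 (SE 0.28, limma adjusted p = 8.43e-10), and −5.67 without both replicate 4 pools. Its GFP+ signal lay above the negative control 95th percentile on 0 of 8 arrays, and against that percentile it was at least 6.95-fold lower.

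Olfr116, of family MOR218, showed the same arrangement. Its GFP+ cells read 8.61, 8.65, 9.93 and 10.97 after 2-octanone, against 13.71, 13.67, 13.92 and 12.99 in GFP− cells. After vehicle the GFP+ values were 8.69, 9.35, 7.70 and 9.21, against 14.28, 14.17, 13.96 and 13.65 in GFP− cells. The difference was −4.65 (SE 0.32, adjusted p = 9.21e-09), and −5.13 without both replicate 4 pools. With 0 of 8 GFP+ arrays above the 95th percentile, the bound was at least 8.9-fold lower. Olfr99 and Olfr116 had their highest GFP+ values after 2-octanone in replicates 3 and 4, the arrays with the most neutrophil marker signal, and the part of other cells in those values was not tested.

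Olfr127, of the same family as Olfr116, had GFP+ values at or under the negative control median on 4 of 4 arrays after 2-octanone. There it averaged 6.20 ± 0.08 in GFP+ cells and 8.74 ± 0.29 in GFP− cells, which makes it at least 4.18-fold lower (adjusted p = 7.49e-06). After vehicle 1 of its 4 GFP+ arrays lay above that median. The bound sets the GFP− mean against the mean of the higher of that median and the probe's own signal. For Olfr128 the same bounds were only 1.26-fold after 2-octanone and 1.16-fold after vehicle. Olfr55, the member with the highest level, averaged 13.03 ± 0.73 in GFP+ and 15.48 ± 0.27 in GFP− cells of 2-octanone pools, with 13.12 ± 0.43 in GFP+ and 15.63 ± 0.23 in GFP− cells of vehicle pools, a difference of −2.48 (SE 0.21, adjusted p = 8.64e-08). Olfr114, Olfr126, Olfr134 and Olfr111 were lower in GFP+ cells, with differences of −2.65, −2.51, −2.02 and −1.34, in 8 of 8 pools each. Of them Olfr126, Olfr134 and Olfr111, like Olfr127 and Olfr128, lay above the negative control 95th percentile on no array.

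**Figure D2:**
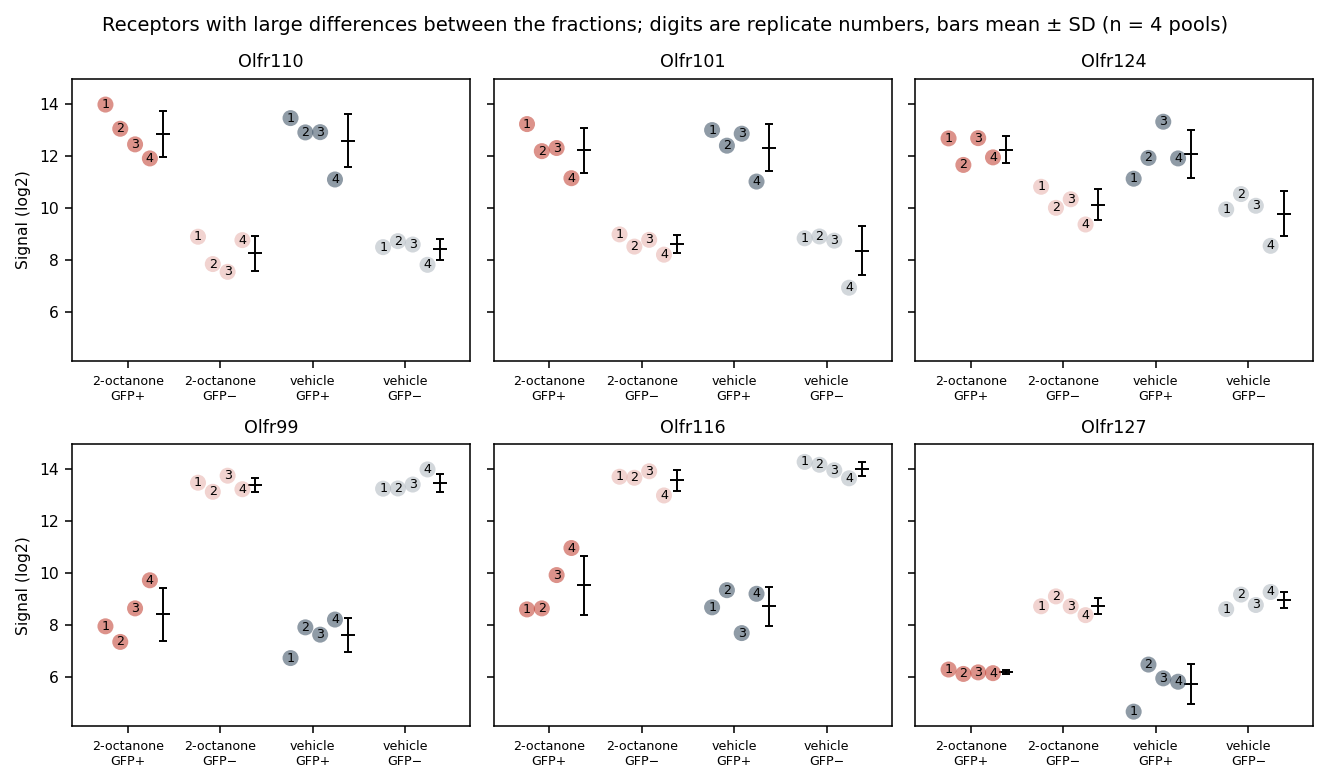
Signal (log2, vertical axis) in the 4 groups for Olfr110, Olfr101 and Olfr124 (top row) and Olfr99, Olfr116 and Olfr127 (bottom row). Each numbered circle is 1 pool, labelled with its replicate number, and bars show the mean and SD of 4 pools. For each of these receptors the GFP+ and GFP− arrays do not overlap in either exposure.

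Members kept nearly the same order of differences in animals given 2-octanone and in animals given vehicle. After 2-octanone 15 members were higher and 10 lower in GFP+ cells. Of all probe sets, 5.29% were higher and 9.8% lower there (15.1% in all), and of the other odorant receptors 33.1% and 19.3%. After vehicle 12 members were higher and 11 lower, beside 7.54% and 11% of all probe sets (18.6% in all) and 36.1% and 20.3% of the other odorant receptors. In both exposures 11 were called higher (3.26% of all probe sets) and 10 lower (8.97%), and 0 were called in opposite directions. Another 4 passed only after 2-octanone and 2 only after vehicle, which does not show that they differ between exposures. The sign was the same for 42 of 47. Across the 47 members the differences of the 2 exposures, which come from separate arrays, had a Pearson r of 0.975 and a Spearman rho of 0.957. In every one of the 8 pools 16 members were higher in GFP+ cells (13.5% of all probe sets) and 10 lower (12.2%). The mean level of a member and its difference had an r of 0.0204 over the 47. With each array centred on its median, 22 were higher and 10 lower after 2-octanone and 21 higher and 10 lower after vehicle. Without both replicate 4 pools the counts were 14 higher and 12 lower after 2-octanone, and 12 higher and 12 lower after vehicle.

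The calls were then counted by receptor family. In MOR250 (Olfr101, Olfr103 and Olfr109) 3 of 3 members were higher in GFP+ cells, by 1.29 to 3.77. In MOR256, with 15 members, 8 were higher, 1 lower and 6 not called, with a median of 1.01. The 1 lower member was Olfr134, at −2.02. In MOR263 3 of 7 were higher and 0 lower, with a median of 0.41 and values of −0.11 to 0.80. MOR218, with 10 members, held 3 higher and 6 lower, from Olfr116 at −4.65 to Olfr112 at 1.99. In MOR156 1 of 5 was higher and 2 lower, the range reaching from −5.41 to 0.72. In MOR267, whose 3 members all lie apart from the MHC run, 2 were lower and 0 higher. Beside these counts stand 16.7% higher and 14.0% lower of all probe sets, and 45.0% and 25.8% of the other odorant receptors. All calls in MOR263 (Olfr119, Olfr120 and Olfr122) were lost under some alternatives. So were those of Olfr98 and Olfr107 in MOR156 and of Olfr113 and Olfr761 in MOR218. The difference between families was not tested.

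**Figure D3:**
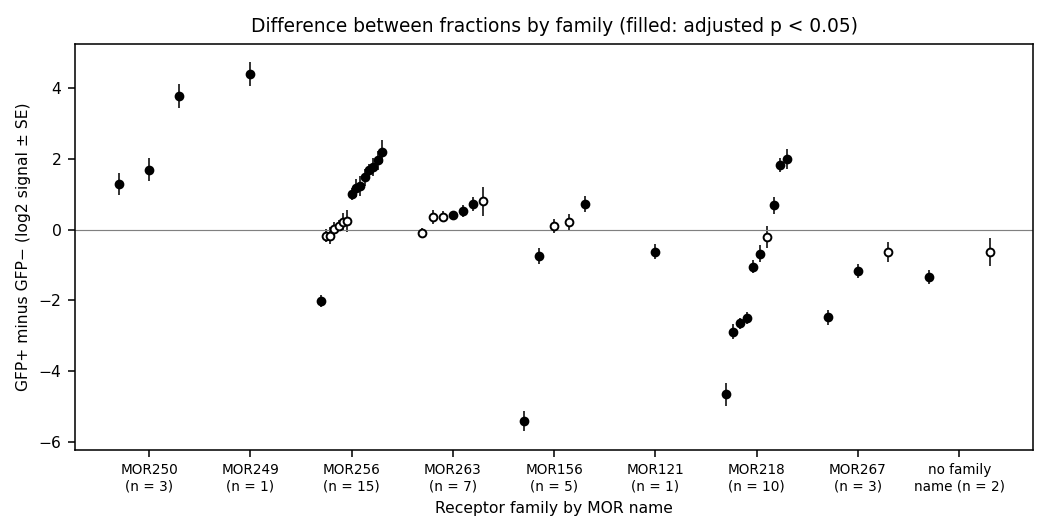
Fitted GFP+ minus GFP− difference, mean of both exposures (log2 signal, vertical axis) by receptor family (horizontal axis). Each point is 1 receptor with its SE, filled where the adjusted p is under 0.05. The 3 MOR250 members lie above 0, and MOR218 spans −4.65 to 1.99.

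Along the chromosome, receptors side by side could be alike or opposite. Of 45 pairs of members next to each other, with any other genes between them passed over, 20 had both members called, 15 of them in the same direction and 5 in opposite directions. Whether neighbours are alike more often than other pairs of members was not tested. These counts include Olfr98, Olfr107, Olfr113, Olfr119, Olfr120, Olfr122 and Olfr761, whose calls were lost under some alternatives. Olfr90 to Olfr93, 4 neighbours of MOR256, were all higher, by 1.76, 1.47, 1.17 and 1.01. Olfr126, Olfr127, Olfr128 and Olfr761, neighbours of MOR218, were all lower, with differences of −2.51, −2.88, −1.05 and −0.68. No receptor of either stretch read above the 95th percentile of the negative controls on any array. Olfr761 kept its call under only 10 of 17 alternatives (−0.90 to −0.40), losing it with each array centred on its median and in 6 of the 8 fits without 1 replicate. The opposite pairs were Olfr99 with Olfr101, Olfr110 with Olfr111, Olfr111 with Olfr112, Olfr113 with Olfr114, and Olfr125 with Olfr126. The gap was widest between Olfr99 and Olfr101, at 9.18, while the median gap between neighbours was 1.12. Of the 29 neighbouring pairs within a family, 11 were called in the same direction and 2 in opposite directions.

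The pair printed above for its alike upstream sequence, Olfr113 and Olfr114, was 1 of those 2. Olfr113 read 9.79, 10.18, 10.38 and 10.69 in GFP+ cells after 2-octanone, against 9.76, 9.35, 10.09 and 9.18 in GFP− cells. After vehicle it read 9.85 to 10.78 in GFP+ cells, against 8.50 to 10.17 in GFP− cells. Those fractions overlapped in each exposure, yet GFP+ exceeded GFP− within 8 of 8 pools, by 0.03 to 1.5, and the fitted difference was 0.68 (SE 0.23, limma adjusted p = 0.0354). It kept that call under 14 of 18 alternatives (0.43 to 0.96) and lost it without both replicate 4 pools, without 2-octanone replicate 4 and without replicate 2 of either exposure, so the count of Olfr113 and Olfr114 as an opposite pair rests on a call that does not hold throughout. Olfr114 read 7.05, 7.41, 7.05 and 7.60 in GFP+ cells after 2-octanone, against a mean of 9.52 ± 0.52 in GFP− cells (SD, n = 4 pools), with within-pool differences of −2.49, −1.95, −3.16 and −1.36. After vehicle it read 6.90, 7.38, 7.28 and 7.09 in GFP+ cells, against 10.23, 10.32, 10.45 and 9.88 in GFP− cells. Here the fractions were apart, with a difference of −2.65 (SE 0.16, adjusted p = 2.46e-09).

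In all, 12 pairs had upstream windows over 70% identical, each pair within a family. Their members did not always share a direction or a size. Olfr98 and Olfr99, at 79.7%, had differences of −0.74 and −5.41, and Olfr133 and Olfr134, at 74.0%, had 0.24 and −2.02. Olfr119 and Olfr122, at 80.5%, had 0.52 and 0.41. The palindrome CCCNNGGG, which reads the same on both strands, occurred in 3 of 34 windows (8.82%: Olfr98, Olfr99 and Olfr108), in 2.53% of 910 windows of other receptors and in 11.8% of all 32851. The homeodomain core TAATTA, also the same on both strands and not overlapping the first, occurred in 3 of 34 (8.82%: Olfr124, Olfr132 and Olfr134), in 18.5% of other receptors and in 4.84% of all. Among members higher in GFP+ cells 0 of 15 windows held the palindrome and 1 of 15 the homeodomain core, and among members lower 2 of 8 and 1 of 8 did. Among members not called, 1 of 11 held each. The 2 lower members with the palindrome were Olfr98 and Olfr99, whose windows are alike as given above. Differences between these groups were not tested.

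The genes around the receptors were measured for comparison. Of 23 listed non-receptor genes of the region, 22 were on the array, 5 were higher in GFP+ cells and 2 lower, with a median of 0.27, beside 16.7% and 14.0% of all probe sets, and nothing particular to the region is read from these counts. The lower ones were H2-M3 (−1.23, SE 0.18, adjusted p = 4.38e-05), a nonclassical MHC class I gene that stands between Olfr98 and Olfr99, and Trim10 (−0.80). Of 17 genes of odorant signalling, 10 were higher and 0 lower, with a median of 0.37, beside the same shares of all probe sets and a median of 0.13. The differences were small beside those of the receptors: Pde1c, a phosphodiesterase of the cilia, had 0.72 (SE 0.09) and Ano2, the chloride channel that amplifies the response, 0.53 (SE 0.09).

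None of the 47 members was called for 2-octanone against vehicle, in either fraction or in the change of the GFP+/GFP− ratio. Across all 19572 probe sets limma called 0 in GFP+ cells, 1 in GFP− cells (0.00511%) and 0 for the ratio (0.0%). The 1 call in GFP− cells was Olfr123, which lies in the same run but was left out of the members, and it was lower after 2-octanone (0.0968% of the 1033 other receptors). That no member was called in GFP− cells therefore depends on leaving Olfr123 out. At an unadjusted p under 0.05 there were 4 members in GFP+ cells (8.51%, against 3.16% of all probe sets), 4 in GFP− cells (8.51%, against 2.44%) and 3 for the ratio (6.38%, against 2.38%). Olfr130 and Olfr132 were in each of these counts. That share was not counted for the other receptors. The median size of a difference, without regard to sign, was 0.22 in GFP+ and 0.15 in GFP− cells. It was 0.18 and 0.19 in other receptors, and 0.11 in each fraction over all probe sets. The 95% intervals of the members reached from −1.61 to 1.75 in GFP+ cells, where 26 of 47 lay within 1 log2 unit of 0 on both sides, and from −1.48 to 1.33 in GFP− cells, where 33 did. For the ratio 11 did, so a change of over 1 log2 unit was not excluded by the interval for most members.

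**Figure D4:**
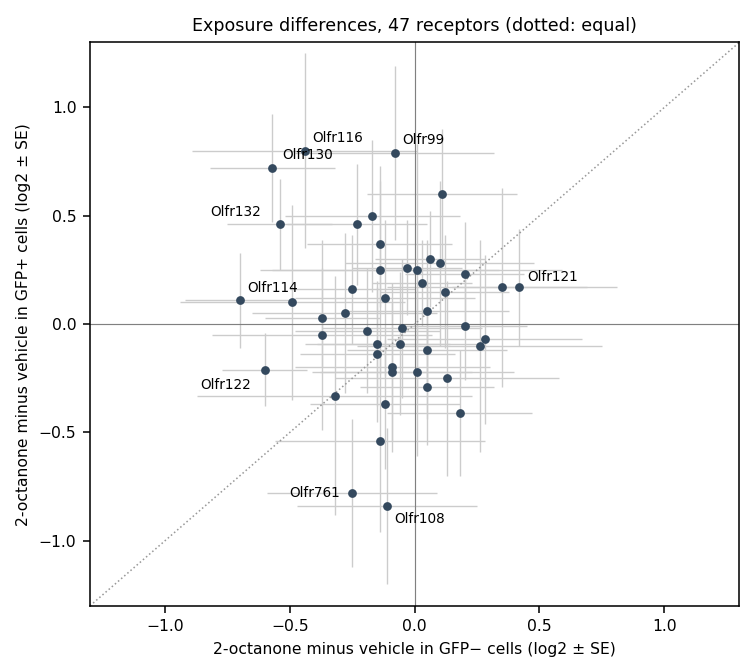
Difference between 2-octanone and vehicle in GFP+ cells (vertical axis) against that in GFP− cells (horizontal axis), both log2 with SE, for the 47 receptors. The dotted line marks equal differences. Olfr130 and Olfr132 lie in the upper left, higher in GFP+ and lower in GFP− cells after 2-octanone, with no adjusted p under 0.05.

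Olfr130 had the smallest unadjusted p for the ratio. In GFP+ cells it read 12.54, 12.68, 12.26 and 12.43 after 2-octanone, against 11.15, 11.62, 11.95 and 12.33 after vehicle. In GFP− cells it read 12.14, 11.85, 12.44 and 11.62 after 2-octanone, against 12.57, 12.85, 12.96 and 11.94 after vehicle. The GFP+ arrays after 2-octanone lie higher with an overlap at vehicle replicate 4, and the GFP− arrays lie lower with the same overlap. The differences were 0.72 in GFP+ (SE 0.25, unadjusted p = 0.0124) and −0.57 in GFP− cells (SE 0.25, unadjusted p = 0.0409), and the ratio value was 1.28 (SE 0.36, unadjusted p = 0.00257, limma adjusted p = 1.0). Without both replicate 4 pools the ratio value was 1.56.

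Olfr132, of the same MOR256 family, had a ratio value of 1.00 (SE 0.30, unadjusted p = 0.00375, adjusted p = 1.0). It read 12.80, 12.39, 12.25 and 12.46 in GFP+ cells after 2-octanone, against 11.66, 11.93, 12.38 and 12.07 after vehicle. In GFP− cells it read 12.50, 11.70, 11.57 and 11.68 after 2-octanone, against 12.29, 12.50, 12.69 and 12.12 after vehicle. The groups overlap in each fraction. Olfr131, which stands between Olfr130 and Olfr132, had a ratio value of −0.35 (SE 0.56). Olfr114 followed with 0.82 (SE 0.31, unadjusted p = 0.0194) and Olfr116 with 1.24 (SE 0.63, unadjusted p = 0.0674), which was 0.57 without 2-octanone replicate 4. The ratio values furthest below 0 by p were those of Olfr125, Olfr108, Olfr761 and Olfr94, at −0.59, −0.74, −0.52 and −0.33. None was called, and over the alternatives they ran from −0.88 to −0.30, −0.97 to −0.54, −1.10 to −0.24 and −0.49 to −0.18, while Olfr114 ran from 0.52 to 1.12.

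Within GFP+ cells the other members with the smallest p were Olfr120 (0.60) and Olfr99 (0.79, or 0.36 without 2-octanone replicate 4) among those higher after 2-octanone. Among those lower they were Olfr108 (−0.84), Olfr761 (−0.78), Olfr125 (−0.41) and Olfr115 (−0.54). None was called, and over the alternatives Olfr761 ran from −1.29 without both replicate 4 pools to −0.45 without 2-octanone replicate 3, and Olfr115 from −0.88 without vehicle replicate 3 to −0.27 without vehicle replicate 2. Olfr108 and Olfr761 lay at or under the negative control median on all 4 GFP+ arrays after 2-octanone. Within GFP− cells Olfr122, of family MOR263, had the smallest p. It read 9.40, 9.22, 9.44 and 9.73 after 2-octanone, against 9.98, 9.92, 10.46 and 9.82 after vehicle, a difference of −0.60 (SE 0.17, unadjusted p = 0.00249, adjusted p = 1.0). Of these GFP− arrays, 0 of 4 after 2-octanone and 1 of 4 after vehicle lay above the negative control 95th percentile. Olfr114 in the same cells had −0.70 (SE 0.22, unadjusted p = 0.00604). Among the members with a value above 0 in GFP− cells, none called, Olfr121, Olfr93, Olfr136 and Olfr124 had the smallest p, at 0.42, 0.20, 0.20 and 0.35, of which the last 3 turned below 0 without vehicle replicate 4.

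**Figure D5:**
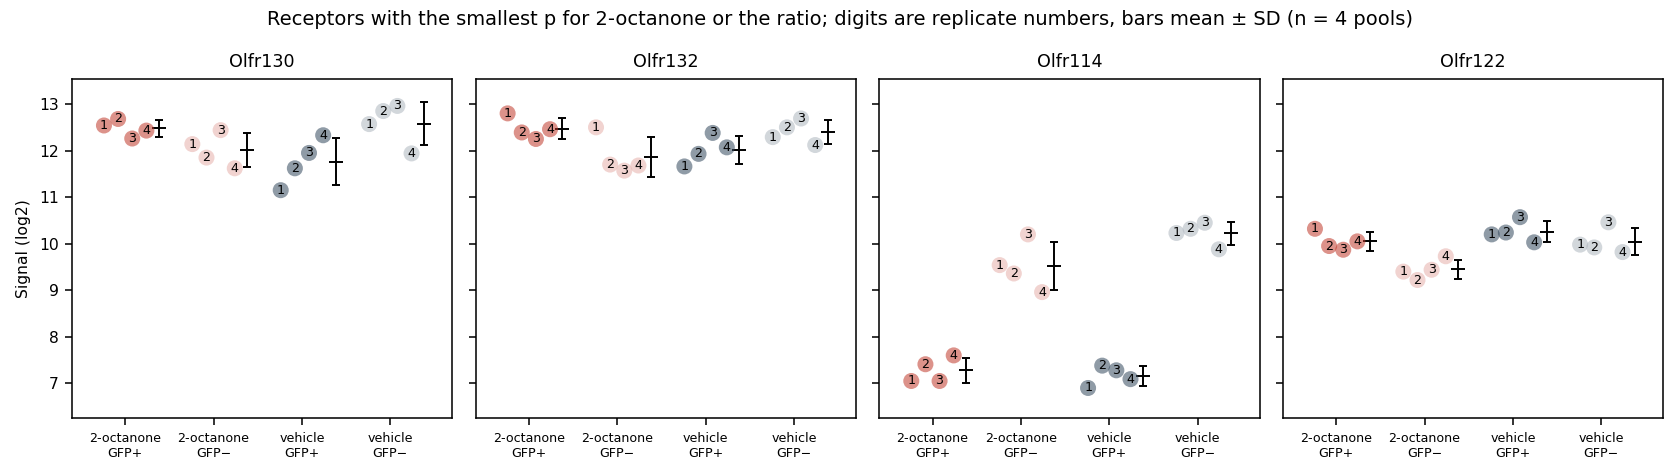
Signal (log2, vertical axis) in the 4 groups for Olfr130, Olfr132, Olfr114 and Olfr122. Each numbered circle is 1 pool with its replicate number, and bars show the mean and SD of 4 pools. In GFP− cells Olfr122 reads 9.22 to 9.73 after 2-octanone and 9.82 to 10.46 after vehicle.

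The replicate 4 GFP− arrays were low for these receptors as a group. Of the 47, 37 (78.7%) had their lowest GFP− value there after 2-octanone and 39 (83.0%) after vehicle, beside 35.3% and 38.5% of all probe sets. The median member read −0.69 and −1.08 relative to the mean of replicates 1 to 3, and the median of the other odorant receptors −0.61 and −0.86. The 8 markers of mature neurons were also lowest on these GFP− arrays. They read 17.16 in replicate 4 beside 17.24 to 17.43 in the others after 2-octanone, and 16.79 beside 17.38 to 17.39 after vehicle. On GFP+ arrays these markers read 17.38 in replicate 4 beside 17.54 to 17.59 after 2-octanone, and 17.44 beside 17.49 to 17.57 after vehicle. There the median member read only −0.05 and −0.13 relative to the mean of replicates 1 to 3. The part of mature neurons in the low receptor signal was not tested.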

How the data were processed

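Each of the 16 arrays measured 1 sorted fraction of 1 pool. The deposited table holds the authors' log2 signals of 28846 probe sets, made with Affymetrix Expression Console per the submitters' processing notes. The log base was read from the range of the values, and the normalisation is not given in the sources used here. The 6640 controls and 2634 probe sets naming no gene were left out. The other 19572 were fitted with limma 3.58.1 in R 4.3.3 on 4 group means (12 residual degrees of freedom, prior 4.19), with two-sided tests and p-values adjusted by Benjamini-Hochberg over all of them, at a threshold of 0.05. The fit was tested on simulated data. With 4 arrays a group, their number limits the precision. Differences are in log2 signal.

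The members and the gene lists were chosen with earlier results of these data known. Named members were the 8 largest differences in each direction called in both exposures, the 4 highest and 4 lowest levels, the 4 smallest p in each direction for 2-octanone and the ratio, and neighbours called in opposite directions. Others named were chosen after their values were seen. Protein sequences were not used here. Fractions of a pool come from the same mice, so the pool as a block was an alternative, and their deviations from the group means had correlations of −0.00493 to 0.461. Same-numbered pools of the 2 exposures had correlations of 0.175 to 0.435 in GFP+ and −0.062 to 0.517 in GFP− cells. Other alternatives were the threshold, normalisation, filter, probe set choice and arrays left out. Upstream windows were aligned pairwise over 250 bases.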

Additional observations from a re-analysis of the deposited data

Results flagged for a closer look

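Of 124 groups of 4 arrays tested for 31 named receptors, 8 had 1 array apart from the other 3. The test weighs the gap against the range of the 4 values, so a small gap can be flagged. Chance flags about 1 in 20 groups, and 8 of 124 is near that share. In vehicle GFP− cells replicate 4 was low for Olfr101 (6.93), Olfr112 (9.33), Olfr113 (8.50) and Olfr131 (10.14). In 2-octanone GFP− cells replicate 4 was low for Olfr134 (8.33). Replicate 3 was flagged there for Olfr115 (12.04, beside 11.69 to 11.74 in the others), replicate 1 for Olfr132 (12.50) and replicate 2 for Olfr761 (6.99). Of these values, 5 come from replicate 4 of GFP− cells, 1 array in each exposure, where most members had their lowest value.

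Of the 47 members, only Olfr132 had a difference between GFP+ and GFP− cells with opposite signs in the 2 exposures in every pool. It was 0.30, 0.69, 0.68 and 0.77 in 2-octanone pools, against −0.63, −0.56, −0.31 and −0.05 in vehicle pools. The limma test of that change gave 1.00 with an adjusted p of 1.0. Over both exposures the difference was 0.11 (SE 0.15, limma adjusted p = 0.583). How often signs split this way by chance was not tested.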

How the results depend on the processing

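The total counts of called members, both directions together, stayed within 1.5 times their reported values under every alternative run, while the members higher after vehicle alone were 21 with each array centred on its median, beside 12 reported. The totals ranged from 26 to 34 for the sort over both exposures (32 reported), from 18 to 32 after 2-octanone (25 reported) and from 21 to 31 after vehicle (23 reported), and were 0 for 2-octanone in GFP+ cells, in GFP− cells and for the ratio. Leaving out 1 replicate gave 26 to 31, 18 to 28 and 21 to 26 for the 3 sort counts. With the pool as a replicate block the sort counts were 33, 28 and 25, and the block with both replicate 4 pools left out, an alternative chosen after seeing the data, gave 34, 29 and 25. With the replicate number as a block the counts for 2-octanone within each fraction stayed at 0, and the block changed the call of no named difference. Of the 32 members called over both exposures, 24 kept the call and sign under every alternative that measured them (14 higher, 10 lower), and 0 changed sign. Those that lost it at least once were Olfr96, Olfr98, Olfr107, Olfr113, Olfr119, Olfr120, Olfr122 and Olfr761. Leaving out vehicle replicate 4 turned the 2-octanone difference in GFP− cells of Olfr93 to −0.08, Olfr136 to −0.09 and Olfr124 to −0.06, all uncalled, where the highest values with 1 replicate left out were 0.39, 0.35 and 0.60, and the cause was not tested. The filter on low signal removed Olfr127, Olfr128, Olfr108, Olfr761 and Olfr94, which lie near the negative controls, so small changes of these cannot be read.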
